A study of Mus musculus musculus x Mus musculus castaneus with 7 samples.

Results

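The Day 13 library of SSEA1+ reprogramming intermediates was compared with the Day 10 library, gene by gene, as the difference of the deposited log2 values. A gene was kept where the higher of its 2 values was at or above 6, which is 64 normalized counts. This left 14089 of 24393 genes, of which 180 belonged to lists of genes of myeloid cells and 13909 did not. The series follows the erasure of random X-chromosome inactivation while female mouse fibroblasts are reprogrammed to induced pluripotent stem cells (iPSCs), with 7 RNA-sequencing libraries, 1 for each of 7 groups. Both libraries came from female embryonic fibroblasts of a Mus musculus musculus x Mus musculus castaneus cross, after 10 and 13 days. All cells of the time course carried lentiviral tetO-FUW-OSKM, a doxycycline-inducible construct of Pou5f1, Sox2, Klf4 and Myc, together with the activator FUW-M2rtTA. An X-GFP transgene was used to sort the fibroblasts, before plating, into a population with the same X inactive in every cell, and the labels do not say which of both kinds of population each library came from. Doxycycline and ascorbic acid stayed in the ESC medium with LIF throughout. Cells of Days 8, 10, 13 and 15 were then sorted for the surface glycan SSEA1, while the label of the Day 2 library names no such sort. The other libraries were an intermediate of Day 2, SSEA1+ intermediates of Days 8 and 15, iPSCs from picked colonies without doxycycline and ascorbic acid, and embryonic stem cells (ESCs). The labels give both the iPSCs and the ESCs as SSEA1+ and GFP+. With 1 library per group there was no spread between replicates, so no test was possible and no difference below has a replicate check.

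Myeloid cells are the macrophages, monocytes and their kin. The transcription factor PU.1 sets their program, the receptor for colony-stimulating factor 1 keeps them alive, and they take up debris through Fc, complement and lectin receptors. The primitive streak is the place in the gastrulating embryo where Wnt and Nodal signals turn epiblast into mesoderm and endoderm, under the T-box factors T and Eomes. In female cells, reprogramming to pluripotency is known for bringing the silent X chromosome back into use.

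The Day 10 library held 42899719 reads on 19524 genes, and the Day 13 library held 34687308 reads on 20923 genes. A single read was worth 0.777 normalized counts at Day 10 and 0.977 at Day 13, so the floor of 3 reads used for genes with none stood at 2.33 and 2.93 normalized counts. Mitochondrial transcripts took 2.55% of reads at Day 10 and 2.22% at Day 13. The epithelial adhesion gene Cdh1 stood at 13.49 at Day 10 and 13.16 at Day 13 on the log2 scale, and the pluripotency factor Nanog at 12.99 at Day 10 and 12.64 at Day 13, so both libraries carried transcripts of epithelial and of pluripotent cells. Folds are ratios of normalized counts, and the brackets after them hold 95% Clopper-Pearson intervals of the reads. A fold against a library with no read is computed against 3 reads in that library. Intervals and floors cover counting error only, since the reads carried no molecular identifiers and the libraries grew from picogram amounts of RNA.

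At a threshold of 4-fold, 997 of the 14089 kept genes (7.08%) were higher at Day 13 and 401 (2.85%) were lower. Without the myeloid genes, 891 of 13909 (6.41%) were higher and 398 (2.86%) lower. The median difference was 0.03 on the log2 scale over all kept genes and 0.02 without the myeloid genes. Most of these genes were weakly measured. Among the 997 genes on the higher side, 342 were without a read at Day 10, 58 had 1 to 3 reads there, and 705 stayed below 8 on the log2 scale even at Day 13. Of the 401 lower genes, 83 had no read at Day 13 and 302 were below 8 at Day 10. Among the 11983 genes at or above 6 in both libraries, a filter added after seeing the data, 138 (1.15%) were 4-fold higher and 69 (0.576%) lower. Of the 11904 of these outside the myeloid lists, 1.02% were 4-fold higher and 0.58% lower. By mean level over the 7 libraries, 26.8% of the 2789 kept genes below 6 were 4-fold higher at Day 13, against 2 of the 1422 genes at or above 12. The part of read sampling in the differences of weak genes was not tested.

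**Figure D1:**
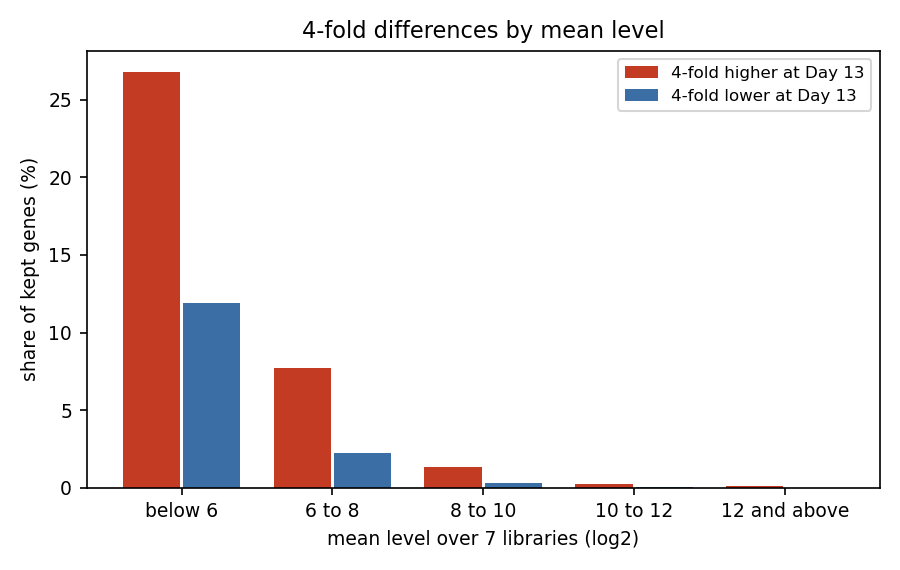
Share of kept genes (vertical axis, percent) that were at least 4-fold higher (red) or lower (blue) at Day 13 than at Day 10, by mean log2 level over the 7 libraries (horizontal axis). Below a mean of 6 the shares were 26.8% and 11.9%, and both were smaller at each higher level.

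The genes of myeloid cells stood furthest from the rest. Of 287 listed genes 247 were in the table and 180 were kept, and 127 of these were at least 2-fold higher at Day 13 and 12 were lower, where 15.7% and 9.51% of all kept genes were. Their median difference was 2.81 on the log2 scale, against 0.03 over all kept genes. At 4-fold, 106 were higher and 3 lower. Of the 180, 174 were at or above 6 at Day 13 and 85 at Day 10, so many were kept through their Day 13 value alone. That filter favours genes high at Day 13. Of the 106 higher genes 17 were at or above 6 in both libraries, and of the 3 lower genes 0 were. In bulk libraries, more cells of a type and more RNA per cell of that type cannot be told apart.

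The 17 defining markers of myeloid cells were followed through the 7 libraries, although not every marker had reads in each. Their summed normalized counts were 672, 53686, 3070, 44255 and 4979 at Days 2, 8, 10, 13 and 15, with 8441 in the iPSC and 5513 in the ESC library. The Day 8 and Day 13 libraries were thus high and the Day 10 and Day 15 libraries between and after them were low. Of the 17 markers, 16 were at least 2-fold higher at Day 13 and none was 2-fold lower, with a median difference of 4.83. Spi1, Cd53, Ctss and Mpeg1 had no read at Day 10, while every marker had reads at Day 13. Without Lyz2, the most read of them, the sums were 2220 at Day 10 and 20030 at Day 13.

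**Figure D2:**
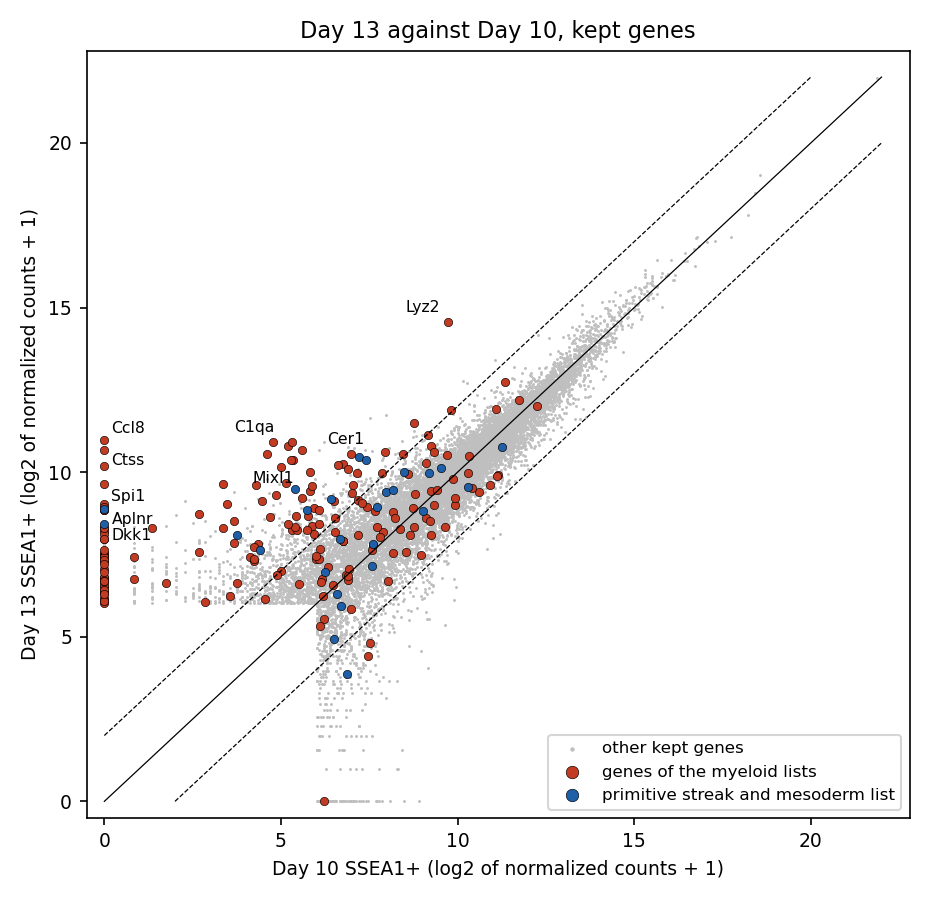
Deposited log2 values at Day 10 (horizontal) and Day 13 (vertical) of the 14089 kept genes, with the 180 kept genes of the myeloid lists in red and the 26 of the primitive streak and mesoderm list in blue. The solid line marks equal values and the dashed lines 4-fold differences. Red points lie mostly above the upper dashed line, where 106 of 180 are found.

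Among the transcription factors of the lineage, 7 of 8 kept genes were 2-fold higher. Spi1, which encodes PU.1, had 0, 2114, 0, 532 and 125 reads at Days 2, 8, 10, 13 and 15, with 46 in the iPSC and 159 in the ESC library. It was thus not detected at Day 10 at this depth and was read at Days 13 and 15 and in both stem cell libraries, and it was at least 223-fold higher at Day 13. Irf8, a partner of PU.1 in monocytes, had 0 reads at Day 10 and 321 at Day 13. Nr1h3, the liver X receptor of macrophages, had 0 reads at Day 10 and 83 at Day 13, and Cebpa, which encodes C/EBP alpha, 0 reads at Day 10 and 73 at Day 13. The exception was Runx1, needed for blood stem cell formation and also read in other tissues, with 1019 reads at Day 10 and 330 at Day 13 and a difference of -1.29.

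Of 16 kept growth factor and pattern receptors, 12 were 2-fold higher and 2 lower, with a median of 2.59, and of 0.63 over the 7 at or above 6 in both libraries. Csf1r, the receptor for colony-stimulating factor 1, had 111, 4936, 318, 1606 and 1589 reads at Days 2, 8, 10, 13 and 15, with 67 in the iPSC and 10 in the ESC library. It was 6.35-fold (5.63 to 7.19) higher at Day 13 than at Day 10. Il21r, the interleukin 21 receptor, had 0 reads at Day 10 and 192 at Day 13, and the nucleic acid sensor Tlr13 had 27 reads at Day 10 and 570 at Day 13. Flt3, a receptor of early blood progenitors and dendritic cells, had 0 reads at Day 10 and 70 at Day 13 and no read in any other library. Tlr1, a lipopeptide sensor, had 3 reads at Day 10 and 100 at Day 13, a ratio of 41.9 (95% counting interval 13.9 to 207).

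The surface and phagocytic receptors were the most uniform of these lists. Of 44 kept members, 39 were 2-fold higher, 36 were 4-fold higher and none was 2-fold lower, with a median of 4.50, and of 2.07 over the 13 at or above 6 in both libraries. Clec4d and Clec4e, lectin receptors for microbial glycolipids, had 0 reads at Day 10 and 505 and 255 at Day 13. The tetraspanin Cd53 had 21, 457, 0, 472 and 23 reads at Days 2, 8, 10, 13 and 15, with 23 in the iPSC and 0 in the ESC library, and Itgb2, the beta chain of leukocyte integrins, had 0 reads at Day 10 and 303 at Day 13. Adgre1, which encodes the classical surface antigen of mouse macrophages, was 13.3-fold (10.5 to 17.1) higher. Fcer1g, the signalling chain of Fc receptors, was 11.4-fold (9.54 to 13.7) higher, and its kin Tyrobp 36.6-fold (26.7 to 51.5). Fcgr1, the high-affinity Fc receptor, had 1 read at Day 10 and 175 at Day 13, a ratio of 220.1 (95% counting interval 38.99 to 8742). Ms4a4a had reads at Day 13 only, 475 of them.

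Signalling and cytoskeletal genes of leukocytes were less uniform, with 37 of 62 kept members 2-fold higher and 4 lower, and a median of 1.71. Plek, the pleckstrin of platelets and phagocytes, had 0, 1822, 0, 1193 and 71 reads at Days 2, 8, 10, 13 and 15, with 46 in the iPSC and 0 in the ESC library. Rac2, the blood-cell Rac GTPase, Evi2a and the oxidase subunit Ncf4 had no read at Day 10 and 322, 286 and 257 at Day 13. The list holds genes that other cells also use, and its median was 0.72 with a minimum level of 8 and 0.33 over the 32 members at or above 6 in both libraries.

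Complement and lysosome genes followed, with 17 of 24 kept members 2-fold higher and 1 lower. Their median was 2.02, and 1.16 over the 15 at or above 6 in both libraries. The genes of all chains of complement C1q, a product of macrophages, were higher. C1qa was 73.5-fold (52.4 to 106) higher, C1qb 49.7-fold (37.1 to 68.1) and C1qc 34.6-fold (26.8 to 45.4). The protease Ctss had 0, 4100, 0, 1659 and 117 reads at Days 2, 8, 10, 13 and 15, with 105 in the iPSC and 41 in the ESC library, and the pore-forming Mpeg1 0 reads at Day 10 and 813 at Day 13. Lyz2, the lysozyme of macrophages, was the most read marker with 215, 22329, 1095, 24802 and 1285 reads at Days 2, 8, 10, 13 and 15, with 832 in the iPSC and 1773 in the ESC library, and it was 28.5-fold (26.8 to 30.3) higher at Day 13 than at Day 10. Its near copy Lyz1 had 30 reads at Day 10 and 1530 at Day 13, and reads of the pair may be shared or lost in alignment. Atp6v0d2, a proton pump subunit of osteoclasts and macrophages, had reads at Day 13 only, 186 of them.

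**Figure D3:**
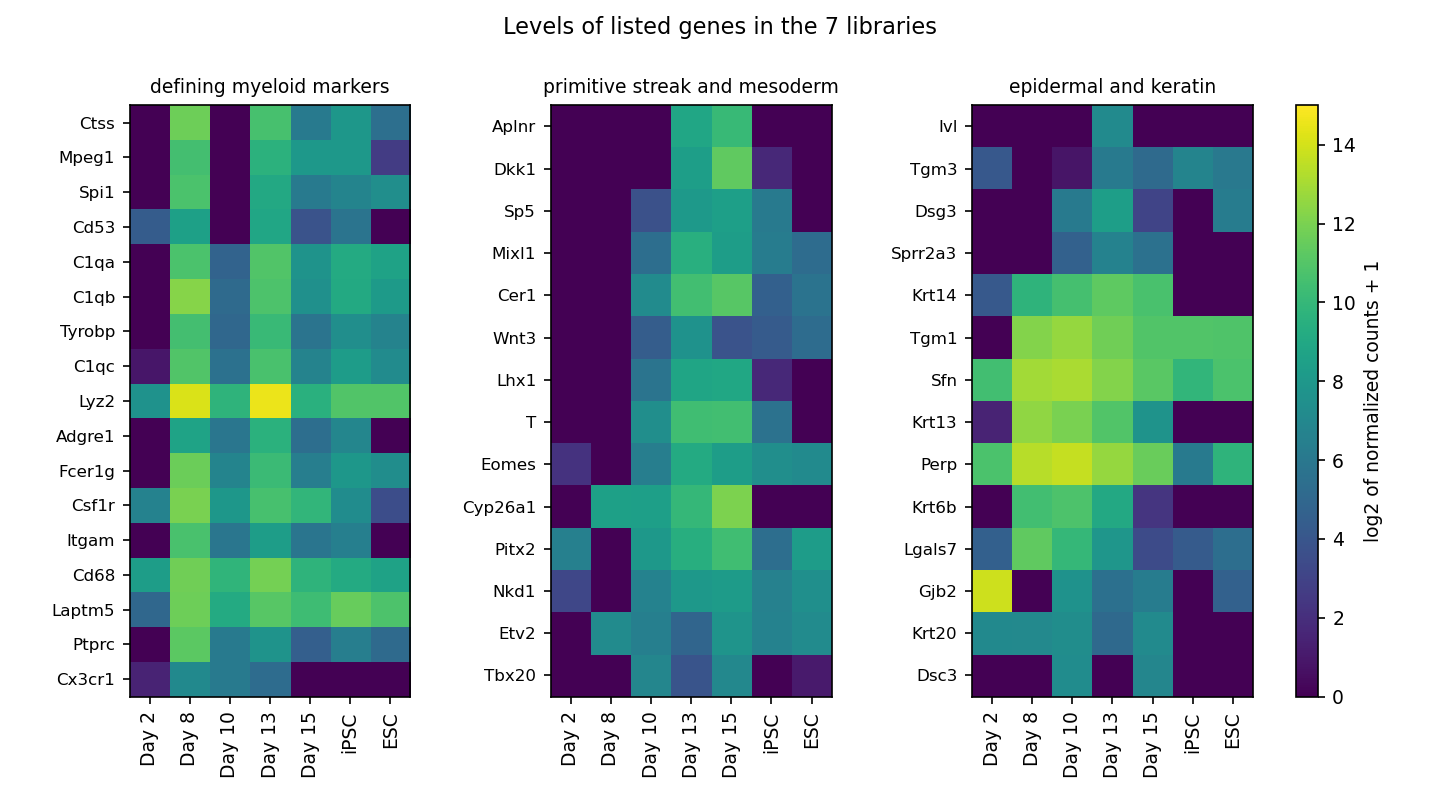
Deposited log2 levels (colour, 0 to 15) in the 7 libraries (columns) of the 17 defining myeloid markers and of the 14 kept genes with the largest absolute difference in the primitive streak and mesoderm list and in the epidermal and keratin list. The myeloid markers were high at Days 8 and 13, while Aplnr, Dkk1 and Cer1 had no read at Days 2 and 8 and were highest at Day 15.

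The chemokine Ccl8, which attracts monocytes, gave the largest fold of all kept genes. It had 0, 0, 0, 2067 and 0 reads at Days 2, 8, 10, 13 and 15, with 0 in the iPSC and 0 in the ESC library, so that it was at least 867-fold higher at Day 13 than at Day 10 and was read in no other library. Ccl8 lies in a cluster of related monocyte chemokines on chromosome 11, and the starts of their coding sequences are shown because reads of close relatives could be assigned to the wrong member. Gaps of the alignment are left out of the lines, so a base need not stand below the Ccl8 base it was aligned to. The sequences are given 5′ to 3′ from the GENCODE M21 transcripts on GRCm38, all on the plus strand, with capitals for bases that differ from the aligned Ccl8 base or have none aligned:
Ccl8: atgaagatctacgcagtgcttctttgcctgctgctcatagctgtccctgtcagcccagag
Ccl2: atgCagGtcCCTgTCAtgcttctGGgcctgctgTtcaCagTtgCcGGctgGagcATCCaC
Ccl7: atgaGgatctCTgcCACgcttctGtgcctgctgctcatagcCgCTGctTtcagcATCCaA
Ccl12: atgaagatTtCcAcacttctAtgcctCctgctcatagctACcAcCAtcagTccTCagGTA
The genes lie at chr11:82115185-82116799 (Ccl8), chr11:82035571-82037453 (Ccl2), chr11:82045712-82047525 (Ccl7) and chr11:82101845-82103400 (Ccl12). Over the whole aligned coding sequence Ccl2 matched Ccl8 at 73.3% of bases, Ccl7 at 65.5% and Ccl12 at 71.2%, with longest identical runs of 12, 17 and 12 bases.

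The relatives of Ccl8 had other courses. Ccl2, which recruits monocytes through the receptor Ccr2, had 4477, 13950, 181, 1021 and 100 reads at Days 2, 8, 10, 13 and 15, with 17 in the iPSC and 35 in the ESC library. Ccl12, a mouse ligand of the same receptor, had 0, 8430, 12, 814 and 57 reads at Days 2, 8, 10, 13 and 15, with 33 in the iPSC and 69 in the ESC library. Ccl7 had 4604, 9217, 1195, 902 and 1012 reads at Days 2, 8, 10, 13 and 15, with 19 in the iPSC and 369 in the ESC library, and it differed by -0.07 on the log2 scale between Days 10 and 13. All 3 relatives were thus read at Day 8, where Ccl8 was not, and 2 of them were higher at Day 13 than at Day 10. The inflammatory chemokines Ccl3 and Ccl4 had no read at Day 10 and 178 and 176 at Day 13. Of the 18 kept chemokine and cytokine genes, 12 were 2-fold higher and 2 lower, with a median of 3.01, and of 0.84 over the 6 at or above 6 in both libraries. Cx3cr1, the fractalkine receptor of microglia and some monocytes, is in this list and had 2, 169, 88, 40 and 0 reads at Days 2, 8, 10, 13 and 15, with 0 in the iPSC and 0 in the ESC library, and its difference of -0.79 made it the exception among the 17 markers.

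The 106 myeloid genes that were 4-fold higher at Day 13 were compared with their levels in the neighbouring libraries. At Day 8, 81 of them (76.4%) were at or above 6, near the 74.8% of all kept genes. At Day 15, 31 (29.2%) were, against 88.8% of all kept genes. Of the 106, 63 were below their Day 8 level at Day 13 and 43 were above it, while 103 were above their Day 15 level. Of the same 106, 21 had no read at Day 8, a library in which 14400 genes had a read. Flt3, Slco2b1, Ccl8, Cd200r1, Ms4a4a, Sash3 and Atp6v0d2 had reads at Day 13 and in no other library.

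Markers of other blood and vessel cells were few and divided. Of the lymphoid genes 7 were kept, 3 (42.9%) were 2-fold higher and 2 (28.6%) lower, both above the shares of 15.7% and 9.51% of all kept genes. Their median was 0.39, and -0.17 over the 4 at or above 6 in both libraries. Zap70, a kinase of T cells, had 58 reads at Day 10 and 320 at Day 13, and Lck, its upstream kinase, 227 reads at Day 10 and 526 at Day 13. Ebf1, a B cell factor that stromal cells also use, had 29 reads at Day 10 and 85 at Day 13. The B cell receptor chain Cd79b had 107 reads at Day 10 and 26 at Day 13, while the T cell receptor chain Cd3e had no read in either library and Cd79a of B cells had 15 reads at Day 10 and 10 at Day 13. Of the neutrophil and granule genes only 3 were kept, and Lcn2, which binds iron carriers and is also made by epithelia, had 0 reads at Day 10 and 92 at Day 13. The other members, Cd177 and Mmp25, had 788 and 373 reads at Day 10 and 279 and 189 at Day 13. Of 13 kept endothelial genes 3 (23.1%) were 2-fold higher and 2 (15.4%) lower. Esam, an adhesion molecule of vessels, had 0 reads at Day 10 and 95 at Day 13 and Robo4, a guidance receptor of vessels, 112 reads at Day 10 and 656 at Day 13, while the angiopoietin receptor Tek had 365 reads at Day 10 and 86 at Day 13 and Flt4 1312 reads at Day 10 and 436 at Day 13. Of the 4 kept erythroid genes Nfe2 was 2-fold higher, with 49 reads at Day 10 and 90 at Day 13. Hba-a1, a globin gene, had 76 reads at Day 10 and 88 at Day 13, the erythropoietin receptor Epor 108 and 105, and Gata1, the erythroid factor, had 94 reads at Day 10 and 75 at Day 13, equal levels after normalization.

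Antigen presentation and interferon-induced genes are used by myeloid cells and by many others, and the shares of both lists that were 2-fold higher at Day 13 exceeded the 15.7% of all kept genes. Of 15 kept MHC class I pathway genes, 7 (46.7%) were 2-fold higher and 1 (6.67%) lower, with a median of 0.67. That median was 0.26 over the 11 members at or above 6 in both libraries and 0.24 with a minimum level of 8. H2-T23 had 79 reads at Day 10 and 261 at Day 13, the immunoproteasome subunits Psmb8 and Psmb9 were 2.95-fold (2.58 to 3.37) and 2.9-fold (2.47 to 3.41) higher, and the class I transactivator Nlrc5 was 3.57-fold (2.99 to 4.29) lower. H2-Q6, of a family of near-identical genes whose reads are uncertain, had 0 reads at Day 10 and 97 at Day 13. Of 32 kept interferon-induced genes, 15 (46.9%) were 2-fold higher and none 2-fold lower, with a median of 0.87. Of the 21 members at or above 6 in both libraries, 5 were 2-fold higher and none 2-fold lower, with a median of 0.60. The antiviral Mx1, Ifit1, Ifit2 and Trim30a had no read at Day 10 and between 82 and 110 at Day 13. Isg15, a ubiquitin-like modifier, was 4.8-fold (3.43 to 6.85) higher. The 5 kept MHC class II genes were divided. The invariant chain Cd74 had 37 reads at Day 10 and 118 at Day 13, H2-Ab1 86 reads at Day 10 and 168 at Day 13 and H2-DMa 91 reads at Day 10 and 109 at Day 13, but H2-Aa, the partner chain, had 224 reads at Day 10 and 21 at Day 13 and was 8.48-fold (5.42 to 13.97) lower. The part of myeloid transcripts in the interferon and class I differences was not tested.

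**Figure D4:**
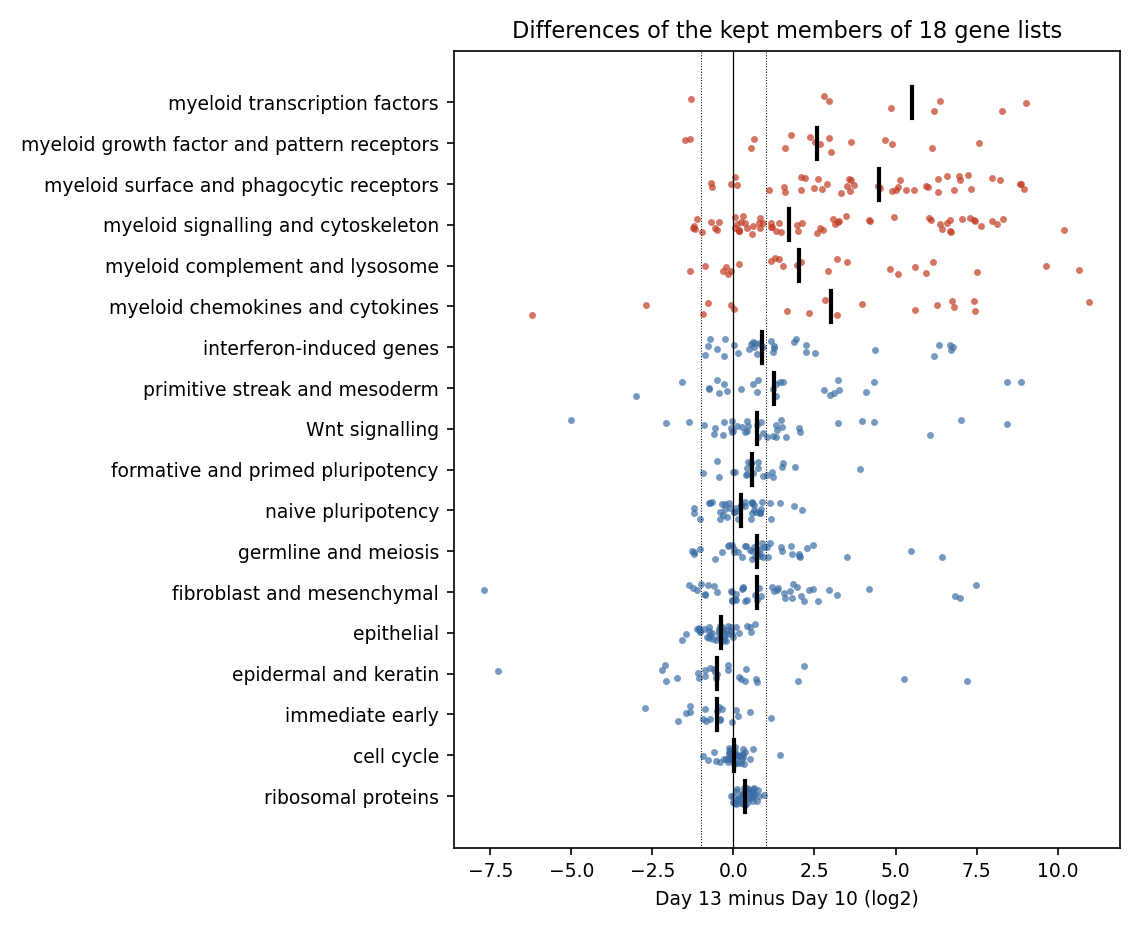
Differences (Day 13 minus Day 10, log2) of the kept members of 18 gene lists. Each point is a gene, thick bars are list medians, dotted lines mark 2-fold differences, and red lists are myeloid. The medians run from 5.52 for myeloid transcription factors to -0.52 for the epidermal and keratin list, with cell cycle genes at 0.00.

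After the myeloid genes were left out, the largest folds belonged to genes with a single read or none at Day 10. The floor of 3 reads replaced only zeros, so a gene with 1 read at Day 10 could rank above a gene with none. Dkk1, with 0 reads at Day 10 and 351 at Day 13, had a difference of 8.43 on the log2 scale. It is not among the 10 named here, while Hecw2, with a difference of 6.28, is. Eln, the elastin of matrix, had 139, 0, 1, 327 and 194 reads at Days 2, 8, 10, 13 and 15, with 1 in the iPSC and 0 in the ESC library, a ratio of 411 (95% counting interval 73.3 to 16292). Lgr5, the R-spondin receptor and a Wnt target, had 94, 0, 1, 233 and 1076 reads at Days 2, 8, 10, 13 and 15, with 0 in the iPSC and 1 in the ESC library, a ratio of 293 (95% counting interval 52.1 to 11623). Aplnr, the apelin receptor of early mesoderm, had 0, 0, 0, 482 and 1905 reads at Days 2, 8, 10, 13 and 15, with 0 in the iPSC and 0 in the ESC library and was at least 202-fold higher. These genes had further reads at Day 15, and Aplnr and Lgr5 had more there. Abat, which degrades the transmitter GABA, had 1 read at Day 10 and 211 at Day 13, and the zinc finger gene Zfp418 1 read at Day 10 and 184 at Day 13. Prdm11, Tc2n, Ttc21a, Mzf1 and Hecw2 complete the 10 and had 1 read each at Day 10 and 140 to 163 at Day 13. Hecw2, a ubiquitin ligase gene, had 62, 0, 1, 140 and 1259 reads at Days 2, 8, 10, 13 and 15, with 784 in the iPSC and 1187 in the ESC library, so that its Day 10 value stood below those of all libraries but Day 8.

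The largest folds in the other direction also rested on few reads. Here too the floor replaced only zeros, so genes with 1 read at Day 13 could rank above genes with none. Ghsr thus had a larger fold than Myo1a, although their differences on the log2 scale were -7.33 and -8.91. Ghsr, the ghrelin receptor, had 0, 5, 408, 1 and 0 reads at Days 2, 8, 10, 13 and 15, with 0 in the iPSC and 0 in the ESC library, a Day 10 to Day 13 ratio of 324 (95% counting interval 57.9 to 12845), and was read almost only at Day 10. Tmem63c, of an ion channel family, had 398 reads at Day 10 and 1 at Day 13. Myo1a, a myosin of the intestinal brush border, had 46, 243, 619, 0 and 0 reads at Days 2, 8, 10, 13 and 15, with 0 in the iPSC and 5 in the ESC library and was at least 164-fold lower. Pnpla1, which builds the lipids of the skin barrier, had 461 reads at Day 10 and 0 at Day 13 and was at least 122-fold lower. Parp14, an ADP-ribosyltransferase, had 440 reads at Day 10 and 2 at Day 13, a Day 10 to Day 13 ratio of 175 (95% counting interval 48.1 to 1449). The mitochondrial carrier Slc25a35, the zinc transporter Slc30a2, Brinp1, Gm10605 and Gm43290 had 1 read each at Day 13 and 131 to 283 at Day 10. Slc30a2 had 487 reads at Day 15 and Brinp1 153, so their low values were those of the Day 13 library.

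Where both libraries stood at or above 6, the largest differences outside the myeloid lists were smaller and better counted; these genes were chosen after their values were seen. F13a1, the coagulation factor XIII chain made by macrophages, was 25.9-fold (21.1 to 32.2) higher at Day 13, Fcrls, an Fc receptor-like gene, 24.96-fold (20.1 to 31.4), and Ifi27l2a, an interferon-induced gene, 17.3-fold (15.2 to 19.8). The neonatal Fc receptor Fcgrt was 14.8-fold (12.6 to 17.6) higher and the phagocyte receptor Sirpa 9.81-fold (8.49 to 11.4). These 5 genes are also known from macrophages, although the lists did not hold them, and all 5 were higher at Day 8 than at Day 10 as well. Dab2, an endocytic adaptor, was 13.8-fold (12.3 to 15.5) higher, and Pmp22, a membrane protein of myelin and fibroblasts, had 171 reads at Day 10 and 1751 at Day 13. Smo, the transducer of Hedgehog signals, was 10.8-fold (8.68 to 13.5) higher and the amino acid transporter Slc7a8 10.5-fold (8.7 to 12.8). Leaving out 18 further genes known from macrophages, these 5 among them and also picked after their values were seen, gave 874 higher and 398 lower genes outside the myeloid lists.

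On the low side of the same set, Slc10a4, a carrier of the bile acid transporter family, had 0, 1446, 1224, 70 and 0 reads at Days 2, 8, 10, 13 and 15, with 0 in the iPSC and 0 in the ESC library and was 13.9-fold (10.9 to 17.95) lower at Day 13. Ednra, an endothelin receptor, was 10.9-fold (8.83 to 13.6) lower, the thioesterase Them5 8.97-fold (7.79 to 10.4), the acyl-CoA synthetase Acsl6 8.81-fold (7.24 to 10.8), the protease inhibitor Spink2 8.53-fold (7.55 to 9.67) and Lmo1, a LIM-only transcription cofactor, 7.98-fold (7.02 to 9.09). Slc10a4, Ednra, Them5, Spink2 and Lmo1 had 1180 to 3096 normalized counts at Day 8 too and at most 122 at Day 15.

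Genes of the primitive streak and early mesoderm leaned to Day 13. Of 26 kept members of 37 in the table, 14 were at least 2-fold higher and 2 lower, against 15.0% and 9.55% of the kept genes without myeloid genes, and the median difference was 1.26. At 4-fold, 9 were higher and 1 lower. The summed normalized counts of all 37 members in the table, kept or not, were 8313 at Day 10, 14745 at Day 13 and 24968 at Day 15. In the Day 15 library the myeloid markers summed to 4979.

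Mixl1, a homeobox factor of the streak, had 0, 0, 53, 730 and 569 reads at Days 2, 8, 10, 13 and 15, with 33 in the iPSC and 35 in the ESC library, and it was 17.3-fold (13.1 to 23.3) higher at Day 13. T (brachyury), which marks the streak and nascent mesoderm, had 0, 0, 217, 1358 and 2414 reads at Days 2, 8, 10, 13 and 15, with 21 in the iPSC and 0 in the ESC library and was 7.87-fold (6.81 to 9.13) higher. Eomes, needed for the exit of mesoderm and endoderm from the streak, had 4, 0, 108, 599 and 566 reads at Days 2, 8, 10, 13 and 15, with 72 in the iPSC and 133 in the ESC library and was 6.98-fold (5.67 to 8.64) higher. All 3 had few or no reads at Days 2 and 8 and had reads at Days 13 and 15 well above those at Day 10. Lhx1, a LIM factor of the organizer, was 8.67-fold (6.71 to 11.4) higher, and Sp5, a Wnt target, had 16 reads at Day 10 and 277 at Day 13. Dkk1, a secreted Wnt inhibitor, had 0, 0, 0, 351 and 4424 reads at Days 2, 8, 10, 13 and 15, with 1 in the iPSC and 0 in the ESC library, and Cer1, a secreted Nodal and BMP inhibitor, had 0, 0, 189, 1440 and 3757 reads at Days 2, 8, 10, 13 and 15, with 10 in the iPSC and 47 in the ESC library. Both were highest at Day 15 by normalized counts. Not all members shared this course. Tbx20, of heart mesoderm, had 150 reads at Day 10 and 14 at Day 13, and Gsc, the organizer gene goosecoid, 122 reads at Day 10 and 79 at Day 13.

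The Wnt pathway list overlaps with the streak list and had 16 of 38 kept members (42.1%) 2-fold higher and 3 (7.89%) lower, with a median of 0.74. Wnt3, the ligand that starts the streak, had 0, 0, 26, 203 and 23 reads at Days 2, 8, 10, 13 and 15, with 8 in the iPSC and 36 in the ESC library and was 9.82-fold (6.51 to 15.4) higher at Day 13. Unlike T and Dkk1, it was low again at Day 15. Of the R-spondins, which strengthen Wnt signals, Rspo3 had 19 reads at Day 10 and 249 at Day 13 and Rspo1 0 reads at Day 10 and 67 at Day 13. The receptor Fzd2 was 4.16-fold (3.29 to 5.29) higher. Of the 3 lower members, Rnf43, which removes Wnt receptors, had 161 reads at Day 10 and 3 at Day 13, a Day 10 to Day 13 ratio of 42.7 (95% counting interval 14.3 to 209), and Apcdd1 was 4.29-fold (3.22 to 5.81) lower. Among genes at or above 6 in both libraries, 8 of 27 Wnt genes and 8 of 17 streak genes were 2-fold higher, with medians of 0.41 and 0.77.

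In the Nodal, BMP and TGF-beta list 8 of 36 kept members (22.2%) were 2-fold higher and 4 (11.1%) lower, against 15.0% and 9.55% of kept genes without myeloid genes. The ligands Bmp2 and Bmp7 were 12.4-fold (8.07 to 19.98) and 7.12-fold (6.05 to 8.41) higher. Nodal itself stood at 11.05 at Day 10 and 11.63 at Day 13 on the log2 scale. The activin subunit Inhbb was 10.5-fold (7.93 to 14.1) lower, Ltbp1, which stores TGF-beta in matrix, 5.17-fold (4.68 to 5.73), and Id1, a BMP target, 2.8-fold (2.66 to 2.95). Of the definitive and primitive endoderm genes 6 of 18 (33.3%) were 2-fold higher and 3 (16.7%) lower. Sox17, a factor of endoderm and germ cells, had 0, 0, 0, 156 and 1639 reads at Days 2, 8, 10, 13 and 15, with 48 in the iPSC and 0 in the ESC library and was at least 65.4-fold higher, while Hhex had 84 reads at Day 10 and 16 at Day 13 and the laminin chain Lama1 2213 reads at Day 10 and 450 at Day 13. The other members with the largest differences were Dab2 and Srgn, which are also read in macrophages.

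Genes of formative and primed pluripotency, the state of the epiblast after implantation, had 7 of 22 kept members (31.8%) 2-fold higher and none 2-fold lower, against 15.0% and 9.55% of kept genes without myeloid genes, with a median of 0.58. Fgf5, the classical epiblast marker, had 179, 5, 1205, 3579 and 1268 reads at Days 2, 8, 10, 13 and 15, with 2 in the iPSC and 1051 in the ESC library and was 3.74-fold (3.5 to 3.99) higher. Pou3f1, a POU factor of primed cells, was 2.81-fold (2.36 to 3.37) higher, the carbonic anhydrase Car14 2.9-fold (2.51 to 3.37), and the zinc finger gene Zic2 had 12 reads at Day 10 and 156 at Day 13. Fgf5 was higher at Day 13 than in any other library by normalized counts.

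The pluripotency network itself had small median differences. Of 42 kept naive pluripotency genes, 5 (11.9%) were 2-fold higher and 3 (7.14%) lower, with a median of 0.23. The shares over kept genes without myeloid genes were 15.0% and 9.55%, but these were smaller among stronger genes. Autosomal genes with a higher value of at least 10 were 2-fold higher in 3.69% and lower in 4.95% of cases. The median level of the naive list was 11.43 at Day 10. Gbx2, a LIF and STAT3 target, was 4.36-fold (3.36 to 5.72) higher, the secreted phosphoprotein Spp1 3.64-fold (3.54 to 3.74) and the oocyte factor Ooep 2.73-fold (2.57 to 2.91), while Sox15 was 2.31-fold (2.03 to 2.63) lower and Tbx3 2.3-fold (2.09 to 2.53). Nanog differed by -0.35 on the log2 scale, Zfp42 (Rex1) by -0.13 and Esrrb by -0.66. Of 25 further pluripotency genes 2 were 2-fold higher, the noncoding Platr4 at 1.30 and Platr14 at 1.18, and 2 were lower, Fut9 and the chromatin factor Epop at -1.15. Fut9, which encodes the enzyme that makes the SSEA1 glycan, had 0, 773, 486, 166 and 611 reads at Days 2, 8, 10, 13 and 15, with 269 in the iPSC and 292 in the ESC library and was 2.33-fold (1.95 to 2.79) lower at Day 13.

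The genes carried by the vector were all lower at Day 13, but reads of the vector and of the endogenous gene cannot be told apart. Klf4 had 309, 9058, 5887, 1739 and 1534 reads at Days 2, 8, 10, 13 and 15, with 697 in the iPSC and 870 in the ESC library and was 2.69-fold (2.55 to 2.84) lower. Myc was 1.82-fold (1.75 to 1.9) lower, Sox2 1.56-fold (1.45 to 1.68) and Pou5f1 1.38-fold (1.35 to 1.4). Only Klf4 passed 2-fold. By normalized counts, Klf4 and Myc were lower again at Day 15.

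Fibroblast and mesenchymal genes, the starting identity, were on balance higher at Day 13 than at Day 10. Of 47 kept members 21 (44.7%) were 2-fold higher and 4 (8.51%) lower, against 15.0% and 9.55% of kept genes without myeloid genes, with a median of 0.73. The median was 0.30 over the 37 members at or above 6 in both libraries and 0.38 with a minimum level of 8. Summed over the 58 members in the table, kept or not, normalized counts were 55112 at Day 10, 75045 at Day 13 and 157924 at Day 15, against 2360915 at Day 2. Col1a1, the main collagen chain of fibroblasts, had 552681, 34818, 2763, 11057 and 50501 reads at Days 2, 8, 10, 13 and 15, with 128 in the iPSC and 1119 in the ESC library and was 5.03-fold (4.83 to 5.25) higher. Its partner chain Col1a2 was 5.44-fold (5.15 to 5.75) higher. Zeb2, a repressor of epithelial genes that macrophages also express, had 5 reads at Day 10 and 565 at Day 13, the matrix gene Fbln5 0 reads at Day 10 and 181 at Day 13, and the PDGF receptor Pdgfrb 0 reads at Day 10 and 130 at Day 13. The receptor kinase Axl ran against them with 31074, 622, 266, 0 and 344 reads at Days 2, 8, 10, 13 and 15, with 0 in the iPSC and 232 in the ESC library. The fibroblast markers Pdgfra and Twist1 did not pass the minimum level, with 11 reads at Day 10 and 24 at Day 13 and with 0 reads at Day 10 and 5 at Day 13. In the smooth muscle list 3 of 11 kept members (27.3%) were 2-fold higher and 1 (9.09%) lower. Calponin (Cnn1) had 19 reads at Day 10 and 490 at Day 13, the kinase Mylk 45 reads at Day 10 and 93 at Day 13 and smoothelin (Smtn) 943 reads at Day 10 and 1687 at Day 13, while the smooth muscle actin Actg2 was 2.72-fold (2.45 to 3.03) lower.

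Epithelial genes leaned the other way by small amounts. Of 42 kept members none was 2-fold higher and 7 (16.7%) were 2-fold lower, against 15.0% and 9.55% of kept genes without myeloid genes. The median was -0.39, and 36 had a difference below 0. Dsc2, a desmosomal cadherin, was 3.02-fold (2.88 to 3.17) lower, Ovol1, a repressor of mesenchymal genes, 2.74-fold (2.55 to 2.95), Bspry 2.17-fold (1.85 to 2.55) and the membrane protease St14 2.1-fold (2.04 to 2.16). Summed over the list, normalized counts were 316786 at Day 8, 297039 at Day 10, 209866 at Day 13 and 137592 at Day 15. In the epidermal and keratin list 4 of 26 kept members (15.4%) were 2-fold higher, near the background, and 7 (26.9%) lower, with a median of -0.52. The cadherin Dsc3 had 0, 0, 198, 0 and 198 reads at Days 2, 8, 10, 13 and 15, with 0 in the iPSC and 0 in the ESC library and involucrin (Ivl), of the cornified envelope, had 0, 0, 0, 150 and 0 reads at Days 2, 8, 10, 13 and 15, with 0 in the iPSC and 0 in the ESC library. Both were thus without reads in most libraries. The transglutaminase Tgm3 had 1 read at Day 10 and 69 at Day 13, and Krt20 206 reads at Day 10 and 35 at Day 13. Of the 20 members at or above 6 in both libraries, 1 was 2-fold higher and 4 were lower. Among these, the keratin Krt6b was 3.33-fold (3.03 to 3.66) lower and the galectin Lgals7 4.27-fold (3.72 to 4.92).

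Immediate early genes respond to growth factors within minutes. Of 19 kept members 5 (26.3%) were 2-fold lower and 1 (5.26%) higher, against 9.55% and 15.0% of kept genes without myeloid genes, and 13 stayed within 2-fold, with a median of -0.51. Egr2 had 1295, 561, 641, 76 and 80 reads at Days 2, 8, 10, 13 and 15, with 0 in the iPSC and 0 in the ESC library and was 6.71-fold (5.28 to 8.62) lower. Fosb was 3.24-fold (2.96 to 3.56) lower, Ier5 2.76-fold (2.16 to 3.54), Fos 2.53-fold (2.45 to 2.61) and the stress factor Atf3 2.53-fold (2.34 to 2.74). The summed normalized counts of the list were 104688 at Day 8, 85872 at Day 10, 53448 at Day 13 and 26615 at Day 15.

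Germline and meiosis genes had 15 of 43 kept members (34.9%) 2-fold higher and 4 (9.30%) lower, against 15.0% and 9.55% of kept genes without myeloid genes, with a median of 0.72. Sycp2, of the synaptonemal complex, had 0 reads at Day 10 and 87 at Day 13, and Slc25a31, a carrier of male germ cells, 3 reads at Day 10 and 150 at Day 13, a ratio of 62.9 (95% counting interval 21.1 to 308). The meiotic cohesin Rec8 had 8 reads at Day 10 and 83 at Day 13 and Stra8, the retinoic acid-induced gene of meiotic entry, 29 reads at Day 10 and 131 at Day 13. Among better counted members, the receptor Kit was 4.82-fold (4.25 to 5.47) higher, the meiotic cohesin Smc1b 4.12-fold (3.73 to 4.56), the recombinase Dmc1 4.13-fold (3.4 to 5.04) and the gonadal factor Dmrt1 4.08-fold (3.56 to 4.7). Smc1b had 0, 0, 503, 1649 and 2922 reads at Days 2, 8, 10, 13 and 15, with 1236 in the iPSC and 1664 in the ESC library, so that it was read from Day 10 on.

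Lists of other lineages showed no common direction. Of the kept genes without myeloid genes, 15.0% were 2-fold higher and 9.55% lower. Of 15 kept neural genes 4 (26.7%) were 2-fold higher and 4 (26.7%) lower. Irx3 had 1 read at Day 10 and 81 at Day 13, and Msx2 100 reads at Day 10 and 0 at Day 13. Hesx1 was 4.67-fold (3.64 to 6.05) higher and Sox1 4.51-fold (3.35 to 6.18) lower. Of 18 trophoblast genes 3 (16.7%) were 2-fold higher and 2 (11.1%) lower. The largest difference was that of Eomes, given above, and Sct and Cited2 were 2.98-fold (2.31 to 3.87) and 2.4-fold (2.1 to 2.76) higher, while Id2 was 2.41-fold (2.32 to 2.52) lower. Only 5 Hox genes were kept, of which Hoxa10 was 8.46-fold (5.38 to 13.9) higher and Hoxc4 6.23-fold (4.42 to 9.03) and Hoxa9 2.67-fold (2.26 to 3.16) lower. Of 44 imprinted genes 7 (15.9%) were 2-fold higher and 3 (6.82%) lower. Nnat, the paternally expressed neuronatin, was 6.04-fold (4.91 to 7.48) higher and the noncoding Mirg 6.62-fold (5.14 to 8.62), Airn, which overlaps Igf2r on the other strand and cannot be separated from it without strand, was 3.89-fold (2.99 to 5.09) higher, and Th had 167 reads at Day 10 and 0 at Day 13.

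The X chromosome is the subject of the series. Over the 532 kept X-linked genes the median difference between Day 13 and Day 10 was 0.295 on the log2 scale (95% order-statistic interval 0.20 to 0.36, over genes and not over samples), and over the 13336 autosomal genes it was 0.02. The 19 autosomes had medians between -0.03 and 0.08. Of the X-linked genes 63.3% were above 0, against 51.2% of autosomal genes. At 2-fold, 20.3% of X-linked genes were higher and 7.33% lower, against 15.4% and 9.55% of autosomal genes. At 4-fold the shares higher at Day 13 were 7.52% and 7.06%. The X-linked shift was thus small and spread over many genes.

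The shift hardly depended on level or on the myeloid genes. Without the myeloid genes the X-linked median exceeded the autosomal one by 0.27, against 0.28 with them. With a higher value of at least 8 the medians were 0.27 for X-linked and -0.02 for autosomal genes, with at least 10 they were 0.28 and -0.07, and with at least 12 they were 0.29 and -0.05. Along the X, 4 stretches of 133 kept genes each, in order of position, had medians of 0.28, 0.43, 0.27 and 0.31. Over 420 X-linked and 10788 autosomal genes with a mean of at least 6 over the 7 libraries, the median X-linked level minus the median autosomal level was -0.52, -0.59, -0.30, -0.01 and 0.12 at Days 2, 8, 10, 13 and 15, with 0.62 in the iPSC and 0.48 in the ESC library. Day 13 stood between Day 10 and Day 15 in this order. The iPSCs and ESCs were labelled GFP+, and the part of this in their values was not tested. Reads were not split by allele, so these values do not say which X they came from.

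**Figure D5:**
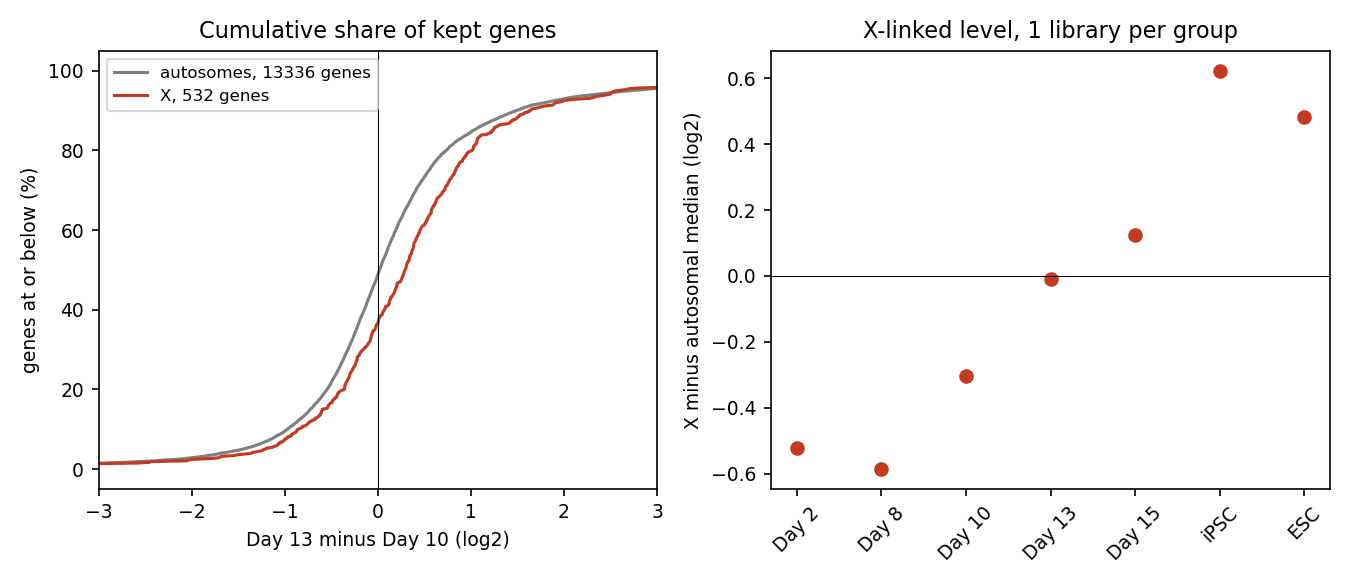
Left, cumulative share of kept genes (vertical, percent) at or below each Day 13 minus Day 10 difference (horizontal, log2) for 532 X-linked (red) and 13336 autosomal genes (grey). Right, median X-linked minus median autosomal log2 level in each of the 7 libraries, over genes with a mean of at least 6, which was -0.30 at Day 10 and -0.01 at Day 13.

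The regulators of X inactivation differed little between the days. None of 32 kept members passed 2-fold in either direction, and their median was -0.12. Xist, the noncoding RNA that coats and silences the inactive X, had 5247, 8615, 5649, 4593 and 14222 reads at Days 2, 8, 10, 13 and 15, with 400 in the iPSC and 918 in the ESC library. Its normalized level at Day 13 was within 0.03 of that at Day 10 on the log2 scale, and reads of its antisense partner Tsix, which had 105 reads at Day 10 and 92 at Day 13, cannot be separated from it without strand. H2afy, a histone variant of the inactive X, differed by -0.75 and Rbm15, an RNA methylation adaptor, by 0.68, Hdac3 by -0.65 and Prdm14, a pluripotency and germline factor, by 0.63. Of 17 genes known to escape inactivation 3 (17.6%) were 2-fold higher, against 20.3% of all kept X-linked genes, and the median was 0.12. Kdm6a, Kdm5c and Ddx3x, which are read from both X chromosomes in female cells, differed by -0.62, -0.26 and -0.30. The escapees with the largest differences were Bgn, a matrix proteoglycan that is also a fibroblast gene, at 1.74, the noncoding Firre at 1.29, Car5b at 1.22 and 5530601H04Rik at 0.87.

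Of 29 X-linked genes tied to pluripotency or MAPK signalling, 6 (20.7%) were 2-fold higher and none 2-fold lower. Over all 532 kept X-linked genes these shares were 20.3% and 7.33%. The median of the list was 0.35, near the 0.295 of all kept X-linked genes. The glypican Gpc4 had 15387, 56, 297, 1347 and 6798 reads at Days 2, 8, 10, 13 and 15, with 2581 in the iPSC and 4012 in the ESC library and was 5.7-fold (5.03 to 6.49) higher, and its neighbour Gpc3 3.86-fold (3.58 to 4.17). Tsc22d3 was 2.97-fold (2.52 to 3.5) higher. Dusp9, a phosphatase that dampens ERK in female stem cells, differed by 0.79 and Klhl13 by -0.35. The housekeeping gene Hprt differed by 0.25.

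In the growth and housekeeping lists a single gene passed 2-fold. Over all kept genes 15.7% were 2-fold higher and 9.51% lower. These lists had median levels of 12.73 to 15.54 at Day 10, and strong genes seldom passed 2-fold. Of autosomal genes with a higher value of at least 12, 1.86% were 2-fold higher and 3.9% lower. Of 40 cell cycle genes 1 was 2-fold higher, the factor E2f1 at 1.43, and the median was 0.00. The cyclin Ccnd2 differed by -0.95, Foxm1 by -0.77 and the topoisomerase Top2a by 0.62. None of 40 oxidative phosphorylation genes passed 2-fold, with the largest differences at Ndufc1 (0.81), Uqcrq (0.70), Ndufs1 (-0.64) and Cox7b (0.62). None of the 9 kept genes of the mitochondrial genome passed it either, and mt-Co1 differed by -0.60. None of 44 ribosomal protein genes passed 2-fold, although 41 of them were above 0, against 45.4% of the autosomal genes with at least 12. Their median was 0.36, and Rpl37 (0.94), Rplp2 (0.80), Rpl11 (0.76) and Rpl5 (0.73) had the largest differences.

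The next lists are set beside kept genes without myeloid genes, of which 15.0% were 2-fold higher and 9.55% lower. These shares were smaller among stronger genes. They were 9.04% and 6.92% for autosomal genes with a higher value of at least 8, and 3.69% and 4.95% with at least 10. Median levels at Day 10 were 11.61 for chromatin silencing and 9.72 for DNA methylation. Of 37 genes of chromatin silencing 1 was 2-fold higher, the Polycomb cofactor Phf19 at 1.19, and 1 lower, Epop, while E2f6 differed by -0.97 and the heterochromatin protein Cbx3 by 0.97. Of 21 DNA methylation writers and erasers 3 (14.3%) were 2-fold higher and none lower. Among them were Mbd1 at 1.25 and Gadd45b at 1.03, and the de novo methyltransferase Dnmt3b differed by 0.76 and the glycosylase Tdg by 0.90. Of 29 FGF and MAPK genes 8 (27.6%) were 2-fold higher and 3 (10.3%) lower, with a median of 0.40 and with Fgf18 at -2.19, Fgf5 as given above, Fgfbp3 at 1.35 and Etv1 at 1.33. Of 30 cell cycle inhibitors and p53 targets 2 were 2-fold higher, Gdf15 at 2.32 and Cdkn1b at 1.35, and 1 was lower, Perp at -1.09, while the death receptor Fas differed by -0.79.

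Metabolic lists had single genes with large differences, while of the kept genes without myeloid genes 15.0% were 2-fold higher and 9.55% lower. Of 37 glycolysis and hypoxia genes 4 (10.8%) were 2-fold higher and 1 (2.70%) lower. Car9, a hypoxia target, had 0 reads at Day 10 and 88 at Day 13, and Adm, another, was 2.48-fold (2.19 to 2.82) higher. Ldhb, a lactate dehydrogenase chain, was 2.32-fold (2.22 to 2.44) higher and Car12 2.03-fold (1.85 to 2.24) lower. Of 30 cholesterol and fatty acid genes 2 (6.67%) were 2-fold higher, among them the desaturase Fads2 at 2.65-fold (2.47 to 2.83). Mvk differed by -0.64 and Fads1 by 0.51. Of 23 genes of the amino acid stress response 4 (17.4%) were 2-fold higher and 1 (4.35%) lower. The lipoprotein receptor Vldlr was 10.1-fold (7.6 to 13.7) higher, the mTOR inhibitor Ddit4 3.02-fold (2.91 to 3.14) and the stress factor Ddit3 2.43-fold (2.12 to 2.8), while Cth differed by -1.01 and Pycr1 by 1.06. Gata2 and Zfp352 were the single kept members of the mast cell and the 2-cell-like list, at -0.61 and with 0 reads at Day 10 and 72 at Day 13.

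The other libraries show where the 4-fold differences outside the myeloid lists recur. Of the 891 higher genes, 62.6% were at or above 6 at Day 15 and 25.9% at Day 8, against 88.8% and 74.8% of all kept genes. In iPSCs and ESCs the shares were 41.6% and 44.0%, against 82.6% and 83.0% of all kept genes. Of the 398 lower genes, 38.7% were at or above 6 at Day 15 and 40.5% at Day 8. The higher genes were thus found more often in the following than in the preceding library, an order that all kept genes shared. The 106 higher myeloid genes had the opposite order.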

How the data were processed

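RNA of the sorted samples was extracted together, and the Nextera XT kit was used on the cDNA, per the labels' protocols. That kit does not mark the strand. The submitters' processing notes name FastQC, the aligner STAR 2.5.3a and featureCounts, on mm10 (GRCm38.p5). The authors deposited log2 values, the log2 of reads per gene over a size factor, plus 1, where the making of the factors was not given in the sources used here. With the logarithm undone, the values were whole reads in 100% of cases within 0.01 reads. No count test was run, since each group had 1 library.

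The Day 10 value was subtracted from the Day 13 value with Python 3.11.15, numpy 2.4.6, pandas 2.3.3, scipy 1.17.1 and matplotlib 3.10.9, and the steps were tested on simulated data. Genes were kept at a higher value of at least 6 and counted at 4-fold, list members also at 2-fold. Of the symbols, 23436 were matched to GENCODE M21 positions and 957 were not. The comparison, its 47 gene lists and the thresholds were chosen with earlier results of these data known. Named were the 10 highest and 10 lowest genes with zeros at 3 reads, with and without the 8 myeloid lists, the 4 members of each list with the largest absolute difference plus members needed for their role, and Xist, the vector genes and Fut9. Other genes were chosen after their values were seen, as said beside them. Alternatives changed the minimum level, the fold, the pseudocount, the scaling and the myeloid genes left out. A few genes that this rule names are not reported here.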

Additional observations from a re-analysis of the deposited data

How the results depend on the processing

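The counts of 4-fold differences depended on how weak genes were treated. With all kept genes, 3408 were higher and 1810 lower without a filter on low values, 292 and 99 with a minimum of 8, 623 and 203 at a fold of 8, and 138 and 69 with both libraries at or above 6. Further, 655 were higher among genes with a read in both. Without the myeloid genes the first 3 of these settings gave 3269 and 1802, 230 and 99, and 539 and 201, and 592 were higher among genes with a read in both. With both libraries at or above 6 and 18 more macrophage genes left out, settings added after seeing the data, 110 were higher and 69 lower. Adding 10 normalized counts, the 3 other scalings and the other ways of leaving out myeloid genes kept these counts within 1.5 times. The scalings moved the median of all kept genes by at most 0.02 on the log2 scale. Of 320 list medians under the alternatives 314 kept their sign. Of the other 6, 3 were those of the cell cycle list under the scalings, at -0.02, -0.01 and -0.02 against 0.00, 1 was that of imprinted genes without a filter, at 0.01 against -0.11, and 1 was that of lymphoid genes with both libraries at or above 6, at -0.17 against 0.39. The last, the median of myeloid transcription factors, was -1.29 with both libraries at or above 6, where Runx1 was the 1 gene left. With that filter the medians of the other myeloid lists stood at 2.07 for surface receptors, 0.33 for signalling, 0.63 for growth factor and pattern receptors, 0.84 for chemokines and 1.16 for complement and lysosome, and signalling stood at 0.72 with a minimum of 8. The excess of the X-linked over the autosomal median kept its direction under all 9 settings run. Single genes were run only for the 26 with the highest and lowest ranks, and all 26 differences were smaller by more than counting error with 10 normalized counts added, with the sign of each kept under the 4 settings run. No paired analysis was possible because each group had 1 library. No replicate could be left out for the same reason, so the spread between cultures is unknown for every value here.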

Other observations

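Some X-linked genes had no read at Day 10 and were read at Days 13 and 15, and they were chosen after their values were seen. Nxf2, a germ cell relative of an mRNA export factor, had 229 reads at Day 13 and 1616 at Day 15, and none at Days 2 and 8. Dgkk, a diacylglycerol kinase gene, had 232 reads at Day 13 and 647 at Day 15. Irs4, an insulin receptor substrate gene, had 92 reads at Day 13 and 1045 at Day 15, with no read in iPSCs or ESCs. Fgf13, an intracellular relative of the fibroblast growth factors, had 182 reads at Day 13 and 534 at Day 15, with 280 in the iPSC and 779 in the ESC library. In the opposite direction, Rtl3 had 3416 reads at Day 2, 396 at Day 8, 102 at Day 10 and none from Day 13 on.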
